A study of Mus musculus with 140 samples.

Results

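TDP-43 is an RNA-binding protein that recognises UG-rich RNA, mostly in introns, and acts in splicing and in keeping long pre-mRNAs intact. Very long introns are a feature of neuronal genes: many of their hosts code for cell adhesion molecules, receptors, channels and RNA-binding proteins of the synapse and the neuronal surface. TDP-43 binding along such introns is known to help sustain the transcripts of these genes in brain, and their loss is a known consequence of TDP-43 depletion. The clusters described here were those that TDP-43 crosslinking left in introns of 100 kb or more.

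The clusters came from 32 eCLIP immunoprecipitation (IP) libraries. In eCLIP, RNA is crosslinked to protein by UV light, the protein is immunoprecipitated and the bound RNA fragments are sequenced, and a paired input library serves as background. The libraries were made from striatum and cortex of mice of 3 months of age, 4 males and 4 females for each genotype in each region. One genotype was R6/2 (B6CBA-Tg(HDexon1)62Gpb), a transgenic model of Huntington's disease that expresses exon 1 of the human gene with an expanded CAG repeat beside the intact mouse gene, so it models the fragment rather than the full-length protein; the other was non-transgenic (NT) mice of the matching cohort, and none of these mice was treated. Tissue was whole dissected striatum or cortex, and fewer cells of a type and less RNA per cell cannot be told apart in it.

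A cluster is an interval in which the peak caller found piled-up IP reads, and it was a member when its midpoint lay in no exon of its strand and in an intron of 100 kb or more of a protein-coding gene, where an intron is a gap between the merged exons of all transcripts (GENCODE vM21, mm10). The rule used position alone and no measured value. Of 6331686 TDP-43 clusters, 482052 were members (7.62%), against 1176822 in introns under 100 kb, 1098141 in 3′ UTRs and 2933452 in coding sequence; the whole series, with the m6A lists, held 13239113. Each library gave between 4648 and 36626 members (median 14196) among 133211 to 260739 listed clusters. The genome offered 1010 such introns in 636 of 21938 protein-coding genes, 183.7 Mb in all with a median length of 144 kb, and 961 of the introns in 590 of the genes held a cluster. Just inside the threshold, 143 introns of 100 to 110 kb held 32870 clusters, and just outside it, 191 introns of 90 to 100 kb held 28457. The median member was 46 bases wide and lay 72.9 kb from the 5′ splice site, and 1.34% lay within 1 kb of an exon. A small share (2.92%) lay in introns, of any length, of 2 or more overlapping protein-coding genes. Each was counted once, for the gene with the longest of these introns.

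Every cluster carries a log2 fold of IP over input and a −log10 p from its list, and a cluster is called enriched here at p of 0.001 or less and a log2 fold above 0. By that call 1354 members (0.281%) were enriched, against 13.1% of all TDP-43 clusters. In the median library 35.7% of members had a log2 fold above 0, whatever their p (lowest 10.5%, highest 55.7%). Some members also met other annotation. An annotated exon was overlapped by 7.20%, one of GENCODE or RefSeq on the same strand, of a small RNA or of the opposite strand. Exons of the host gene itself, such as those that bound the intron, count among these. Of all members, 2.35% lay in 22 genes known only by a Gm number.

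The recurrent places are best seen in their letters. Sites were defined as stretches covered by clusters of at least 4 of the 16 libraries of a region, and 145 of 20378 such sites had an enriched cluster in any library. The first set shows 30 bases from sites whose 51 central bases hold the TDP-43 motif and which were enriched in 6 or more libraries; they were chosen after their values were seen, from 8 such sites, because the shown bases hold the motif. Sequences are from the GRCm38 (mm10) assembly, 5′ to 3′ on the strand of the host gene, as DNA, with TGTGT in capitals; the 30 bases shown of a site are those that hold most letters of TGTGT, or the central ones where it holds none:
Nrxn3: tgaatttttacagggctcttTGTGTaaaga
Auts2: tgctgtgagtgtacaTGTGTgcatgagagg
Fam155a: aTGTGTGTgagTGTGTgagagagTGTGTGT
Negr1: tTGTGTGTgaaaaTGTGTGTgagTGTGTGT
Gm37240: gactcccgactgcacacaccagcttTGTGT

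The Nrxn3 bases are chr12:89377119-89377148 (+), in intron 15 of 28 of this presynaptic adhesion receptor, 22.7 kb from the 5′ splice site; that site was listed in 30 of 32 libraries and enriched in 17, with a median log2 fold of 3.87. In Auts2, a nuclear regulator of neuronal gene expression, chr5:131633096-131633125 (−) was enriched in 11 libraries (median log2 fold 2.30). The repeat-rich stretches of Fam155a, chr8:9437023-9437052 (−), and Negr1, chr3:156583860-156583889 (+), were enriched in 7 and 6 libraries, with median log2 folds of 1.53 and 1.34. Fam155a codes for an auxiliary subunit of the sodium leak channel and Negr1 for an adhesion molecule of the neuronal membrane. The Gm37240 bases, chr3:84977453-84977482 (−), lie antisense to an annotated exon.

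The sites enriched in most libraries mostly lacked the motif. The second set is shown because 12 sites carried 700 of the 1354 enriched members (51.7%), and 11 of the 12 lacked the motif in their central window, though the Anks1b site, 395 bases long, holds it near an end, where its shown bases lie:
Slc22a22: ccataccaccctgaacgcgcccgatctcgt
Cmss1: agtctaacgcgtgcgcgagtcaggggctcg
Anks1b: TGTGTggtttgactttgtttggtttgatgt
Snx12: tgagttgagtgaagatatctgggagggtag
Nfib: gtggccgcagcaacctcggttcgaatccga
Lrrtm4: gaagagcaggaggaggaggagcaggaggag

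The Slc22a22 site, chr15:57433209-57433238 (−), was enriched in 32 of 32 libraries with a median log2 fold of 5.31, and its 30 bases match 49 annotated ribosomal RNA genes exactly. The Cmss1 site, chr16:57391636-57391665 (−), was enriched in 31 libraries (5.40), and the Nfib site, chr4:82619632-82619661 (−), which lies on a RefSeq tRNA gene, in 25 (3.24). The Snx12 site, chrX:101211019-101211048 (−), lies on a RefSeq exon of its strand, 925 bases from the nearest GENCODE exon, and was enriched in 28 libraries (2.79). No other annotated exon lay at the sites of Anks1b, chr10:90692917-90692946 (+), whose product is a postsynaptic scaffold protein, enriched in 30 libraries with a log2 fold of 2.72, and Lrrtm4, chr6:80492578-80492607 (+), which codes for a postsynaptic adhesion molecule, in 25 with 2.74. Further sites of the 12 lay in Gm20388 (31 libraries), Gpm6b (29), Gm37240 (23) and again Cmss1 (22). The last pair lay in Gm42416 (24 libraries at each). The Gpm6b site reached into the exon that bounds its intron. Enriched members overlapped an annotated exon, the host's own included, more often than the rest did, 23.7% against 7.15%. They also held UGUGU more often, 20.6% against 14.6%, but held UG repeated 4 times less often, 4.14% against 7.95%; the members within each set are not independent, and these shares are descriptions.

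The region and genotype labels were checked against marker genes on exon clusters. Summed scaled clusters of the 11 striatal markers ran from 273 to 347 in NT striatum and from 116 to 162 in NT cortex, and those of 9 cortical markers from 53.5 to 118 and from 139 to 159, so the libraries followed their region labels. Scaled clusters are clusters multiplied by the mean listed total (197740) over the total of the library. In R6/2 striatum the striatal markers summed to 122 to 211, and 10 of the 11 were lower than in NT (limma, adjusted p under 0.05), as were 4 of 6 astrocyte, 3 of 5 oligodendrocyte, 2 of 2 interneuron and 1 of 5 cortical markers tested and 0 of 1 each of microglia and vascular markers; over all 8329 exon features 34.1% were lower. Of the 8 R6/2 striatum libraries 5, the 4 females and male 4, also stood apart in the share of all listed clusters that were intronic, 36.2% to 47.5% against 18.8% to 23.0% in the other R6/2 libraries and 16.1% to 25.7% in NT. The main comparisons of R6/2 with NT striatum are therefore also given without them. That leaves males 1, 2 and 3, compared with the 4 NT males in the permutation tests, with 35 labelings. The intronic share contains the very-long-intron clusters, so leaving out its highest R6/2 libraries lowers the R6/2 share by construction. Values without them describe the males that remain and are no independent check of the genotype difference. Group means, counts per gene list and values of genes are over all 8 libraries unless said otherwise.

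The first comparison asked whether the genotypes and regions differed in how much of the TDP-43 signal lay in very long introns. In NT striatum the members made up 4.72% ± 1.38 of listed clusters (SD, n = 8; lowest 3.07, median 4.49, highest 6.87), and in R6/2 striatum 8.86% ± 3.75 (3.90, 9.93, 14.2). The 5 libraries named above lay over every NT library and the other 3 among them. The difference of 4.14 percentage points had p = 0.00245 by the exact permutation test within sex (two-sided; smallest possible p 0.000408), or 0.0114 after Benjamini-Hochberg adjustment over the 70 library-level tests. Without the 5 libraries it was 0.712 points (exact permutation p = 0.343). It was 1.92 points in males and 6.36 points in females.

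In cortex the share was 7.09% ± 1.19 in NT mice (5.48, 7.0, 9.21) and 8.34% ± 1.36 in R6/2 mice (6.82, 8.18, 10.4), with overlapping groups. The difference of 1.25 points did not pass (exact permutation p = 0.0849, adjusted 0.156), and it was 0.0369 points in males and 2.46 in females. Between regions, NT cortex exceeded NT striatum by 2.37 points (adjusted exact permutation p = 0.0238), with 4 of 8 cortex libraries above every striatum library. In R6/2 mice the regions overlapped throughout, and cortex was at −0.516 points relative to striatum (adjusted exact permutation p = 0.720). The m6A libraries of the same design, which were made from poly(A)-selected RNA with an antibody to methylated adenosine, had 2.19% of clusters in these introns in NT and 2.24% in R6/2 striatum, and 2.51% and 2.44% in cortex, with adjusted exact permutation p of 0.817 and 0.720.

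**Figure D1:**
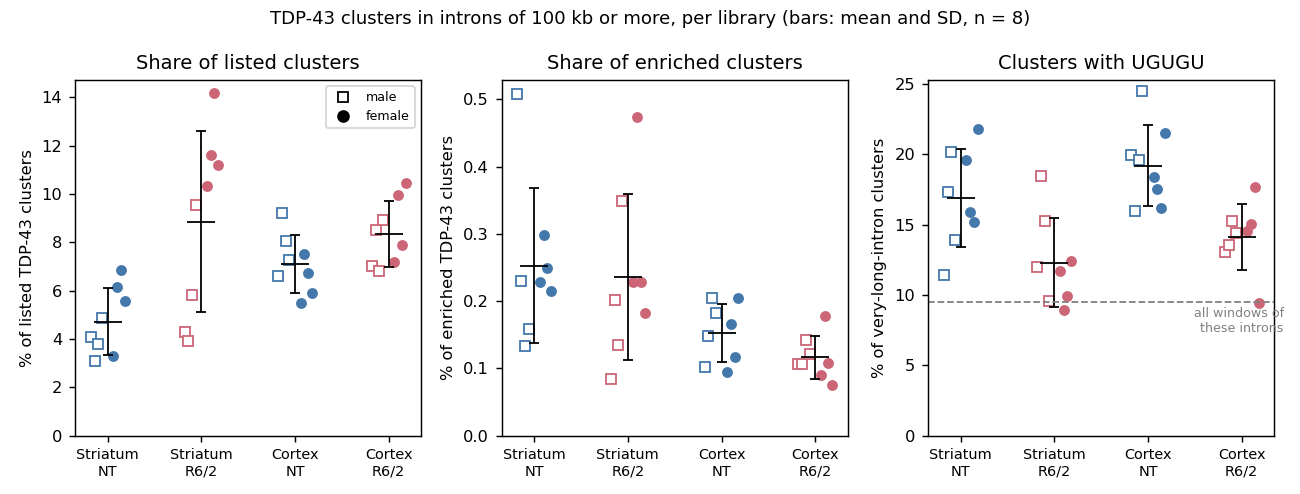
Each point is 1 TDP-43 library (blue NT, red R6/2; open squares males, filled circles females) and bars are the mean and SD (n = 8); the panels give the percent of listed clusters in very long introns, the percent of enriched clusters there, and the percent of members with UGUGU, with a dashed line at the 9.46% of all windows of these introns. The R6/2 striatum points of the left panel split into 5 above the NT range and 3 within it, and in the right panel every point but 1 of R6/2 striatum (8.95%) and 1 of R6/2 cortex (9.45%) lies above the dashed line.

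Setting members against the exon clusters of the same host genes gave the same order. The log2 ratio of very-long-intron to exon clusters was −0.29 ± 0.48 in NT and 0.86 ± 0.93 in R6/2 striatum, a difference of 1.15 (adjusted exact permutation p = 0.0114), or 0.32 without the 5 libraries (exact permutation p = 0.286). In cortex it was 0.39 ± 0.31 in NT and 0.76 ± 0.33 in R6/2 mice, and that difference of 0.37 did not pass after adjustment (exact permutation p = 0.0412, adjusted 0.0931). Against introns under 100 kb no genotype difference passed: the log2 ratio of long to shorter introns differed by 0.21 in striatum (adjusted exact permutation p = 0.164) and by −0.02 in cortex (adjusted 0.786). It did separate the regions, being 0.44 higher in NT cortex than in NT striatum, with 6 of 8 cortex libraries above every striatum library (adjusted exact permutation p = 0.00952), and 0.22 higher in R6/2 cortex than in R6/2 striatum (adjusted 0.0151).

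Per base, the longest introns carried the most clusters among introns over 1 kb. NT striatum had 3.8 clusters per 100 kb in introns of 1 to 10 kb, 3.00 in those of 10 to 100 kb and 5.08 in those of 100 kb or more; the figures for NT cortex were 4.14, 3.75 and 7.63. Within the very long introns the density was higher still in the longest ones, in NT striatum from 4.16 in the 551 introns of 100 to 150 kb to 7.09 in the 71 introns over 300 kb and in NT cortex from 6.01 to 10.4. In R6/2 mice the corresponding ends were 7.62 and 13.2 in striatum, and 7.15 and 12.3 in cortex; without the 5 libraries those of R6/2 striatum were 3.95 and 7.31. Lists of clusters hold one call per pile-up, so these densities count places and not reads.

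Members crowded towards the 5′ end of their introns. In NT cortex, with each intron cut into 10 bins of equal length, 16.7% of members lay in the first bin and 3.68% in the last, in NT striatum 16.7% and 4.23%, and in R6/2 mice 16.1% and 3.85% in cortex and 15.6% and 4.06% in striatum. Members with UGUGU had a like profile, 17.5% and 3.51% in NT cortex. The share in the first 2 bins was 1.53 points lower in R6/2 than in NT striatum and 0.922 points lower in cortex, and neither passed (adjusted exact permutation p = 0.0818 and 0.156). First introns of a gene were no richer than their length: they held 30.1% of members and 30.7% of the very-long-intron bases.

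**Figure D2:**
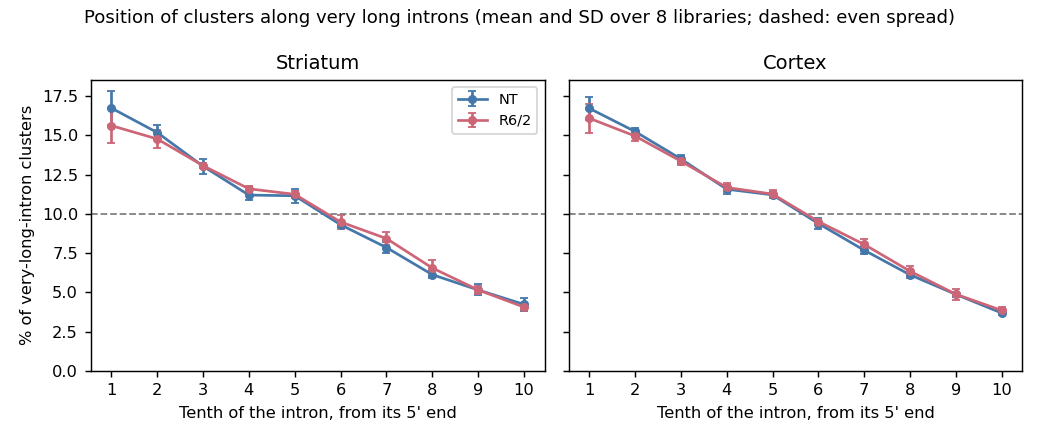
The percent of members in each of 10 equal bins of the intron, from its 5′ end (1) to its 3′ end (10), is plotted as the mean over 8 libraries with SD for each region and genotype, with a dashed line at an even spread of 10%. All 4 groups fall from 15.6% to 16.7% in the first bin to 3.68% to 4.23% in the last.

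The letters under the members were compared next, since UGUGU is the known TDP-43 motif. The motif was searched as UGUGU on the strand of the gene only, in 51 bases centred on the cluster, and 9.46% of all windows of that length tiling the very long introns held it. In NT striatum 16.9% ± 3.48 of members held UGUGU (lowest 11.4, median 16.6, highest 21.8) and in R6/2 striatum 12.3% ± 3.17 (8.95, 11.9, 18.4). NT cortex had 19.2% ± 2.87 (15.9, 19.0, 24.5) and R6/2 cortex 14.1% ± 2.35 (9.45, 14.5, 17.7). In cortex R6/2 members held the motif less often, by 5.06 points, and 7 of 8 R6/2 libraries lay below every NT library (exact permutation p = 0.00204, adjusted 0.0114). In striatum the R6/2 share was 4.63 points lower and missed the adjusted test (exact permutation p = 0.0220, adjusted 0.0593). Without the 5 libraries the striatal difference was −0.484 points (exact permutation p = 0.886), while in cortex it was −5.93 in males and −4.19 in females.

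UG repeated 4 times, a longer run that contains UGUGU, stood further above the tiles. It was in 1.11% of tiles, in 9.79% and 6.46% of members in NT and R6/2 striatum and in 11.3% and 7.35% in cortex, and the cortex difference passed (adjusted exact permutation p = 0.00714; striatum 0.108). As a share of all listed clusters, members without UGUGU made up 3.93% in NT and 7.85% in R6/2 striatum (adjusted exact permutation p = 0.0114). Without the 5 libraries that difference was 0.616 points (exact permutation p = 0.343). Members with UGUGU made up 0.791% and 1.01% of listed clusters (adjusted exact permutation p = 0.0816). In cortex the corresponding values were 5.74% and 7.18% without the motif (adjusted 0.0829) and 1.35% and 1.16% with it (adjusted 0.195). Among all 5-mers, GUGUG was the most overrepresented against the tiles in every group, 7.94 ± 2.50 times in NT striatum and 8.75 ± 1.67 in NT cortex against 5.16 ± 2.17 and 5.74 ± 1.21 in R6/2. GCGCG was next, 7.35 and 8.01 times in NT and 5.03 and 5.63 in R6/2, so a GC-rich set of members stood beside the UG-rich set.

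Other sequence measures also moved with genotype, and their part in the motif difference was not tested. The share of cluster bases in soft-masked repeats, which simple UG repeats are part of, was 34.8% in NT and 29.3% in R6/2 cortex, with 8 of 8 R6/2 libraries below every NT library (exact permutation p = 0.000408, the smallest possible, adjusted 0.00408), and 33.9% and 32.3% in striatum. The tiles had 29.6%. GC content was 46.2% in NT and 44.8% in R6/2 striatum (adjusted exact permutation p = 0.0114) and 45.6% and 45.2% in cortex (adjusted 0.226), against 40.7% in the tiles. Median width rose from 41.3 to 47.6 bases in striatum (adjusted 0.0125) and was 44.5 and 45.6 bases in cortex (adjusted 0.388). The striatal differences in GC content and width were −0.650 points and 6.58 bases without the 5 libraries (exact permutation p = 0.229 and 0.143).

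Compared with clusters of shorter introns in the same libraries, members held UGUGU slightly less often. The difference was −1.15 points in cortex, lower in 15 of 16 libraries (exact sign-change permutation, adjusted p = 0.000854), and −0.888 in striatum, lower in 10 of 16 (adjusted 0.0687). With UG repeated 4 times as the motif, an alternative chosen after seeing the data, the sign turned, to 0.260 in cortex and 0.663 in striatum, and neither passed (exact permutation p = 0.0739 and 0.0530). Compared with 3′ UTR clusters, members held UGUGU more often in cortex by 4.54 points, in 15 of 16 libraries (adjusted exact permutation p = 0.00142), and in striatum by 1.72 points (adjusted 0.164).

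The enrichment over input set very long introns apart from exons, with shorter introns in between. The median log2 fold of members per library averaged −0.33 in NT and −0.25 in R6/2 striatum and −0.59 and −0.48 in cortex, and neither genotype difference passed (adjusted exact permutation p = 0.601 and 0.476). For 3′ UTR clusters it averaged 1.54 in striatum and 2.02 in cortex, and the members were lower in 16 of 16 libraries of each region (adjusted exact permutation p = 0.000534). On the call of single clusters, 0.408% of members against 17.6% of 3′ UTR clusters were enriched in striatum, and 0.328% against 31.9% in cortex. In the median of the 32 libraries, clusters of introns under 100 kb had a log2 fold of 0.25, and 1.38% were enriched. For members these values were −0.40 and 0.297%, and for coding-sequence clusters 1.12 and 14.6%. Low enrichment was thus shared by shorter introns.

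For enriched members no genotype difference in share passed. They made up 0.253% ± 0.115 of enriched clusters in NT and 0.236% ± 0.124 in R6/2 striatum (adjusted exact permutation p = 0.823), and 0.153% ± 0.044 and 0.116% ± 0.032 in cortex (adjusted 0.157). Each library held 12 to 100 of them, on average 39.6 in NT and 31.5 in R6/2 striatum and 60.1 and 38 in cortex (adjusted 0.185 and 0.144). As a share of the listed members, those enriched were 0.580% in NT and 0.236% in R6/2 striatum (adjusted exact permutation p = 0.0405, with 6 of 8 R6/2 libraries below every NT library) and 0.442% and 0.214% in cortex (adjusted 0.0335, with 3 of 8). The striatal difference was −0.133 points without the 5 libraries (exact permutation p = 0.514). Enriched members lay in 84 genes, led by Gm42416 (139 over all libraries), Cmss1 (134), Anks1b (100), Snx12 (84), Nrxn3 (81) and Gm20388 (73).

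Sites that recurred in more libraries held the motif more often. Among the 12149 striatal sites, 13.7% of those listed in 4 to 7 of 16 libraries held UGUGU, 19.7% in 8 to 11, 31.0% in 12 to 15 and 31.3% in all 16 (134 sites). Among the 15560 cortical sites the shares were 18.0%, 24.8%, 32% and 43.8% (304 sites in all 16). In introns under 100 kb the shares went from 17.8% to 24.5% and then 17.3% in striatum and from 22.8% to 27.6% in cortex. Over both regions 89 sites were listed in all 32 libraries, 34 of them (38.2%) with UGUGU, against 17.6% of all 20378. These are shares of sites and were not tested.

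**Figure D3:**
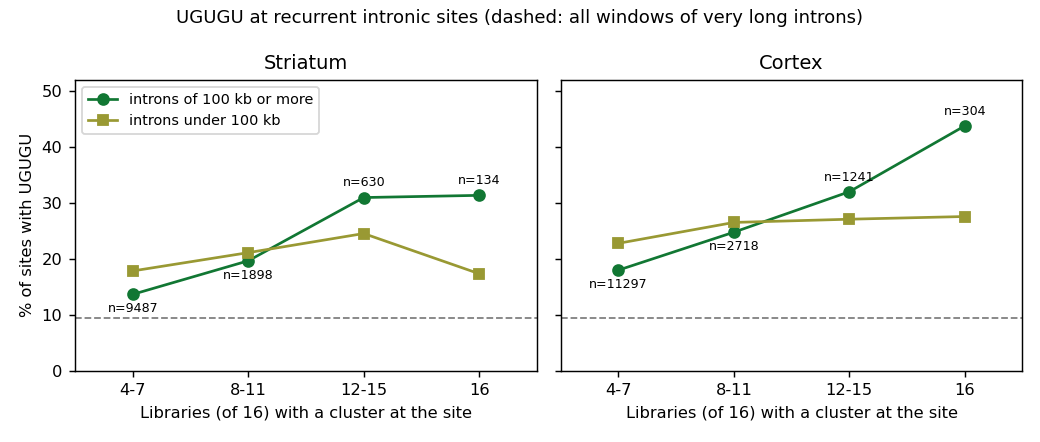
The percent of sites whose 51 central bases hold UGUGU is plotted by the number of libraries (of 16) that list the site, for introns of 100 kb or more and under 100 kb in striatum and cortex, with the 9.46% of all windows as a dashed line. Sites in very long introns climb from 13.7% to 31.3% in striatum and from 18.0% to 43.8% in cortex.

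Members that fell on a site made up 39.8% in NT and 33.4% in R6/2 striatum and 40.1% and 36.8% in cortex, so most members lay where fewer than 4 libraries had a cluster. UGUGU was more frequent on sites than off them in all 32 libraries, on average by 8.90 points in striatum and 12.9 in cortex. In cortex the share with UGUGU on sites was 27.7% in NT and 21.4% in R6/2, and off sites 13.5% and 9.94%. Of the striatal sites 56.2% overlapped a cortical site, and 43.4% of the cortical sites overlapped a striatal one.

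No single site passed adjustment over all sites of all classes (216695 in striatum and 236989 in cortex, exact permutation within sex). The smallest possible p of a site was 0.000408, too large for a few sites to pass among so many. The adjusted test therefore cannot tell whether single sites differed. At unadjusted p under 0.05, 1211 striatal sites in very long introns (9.97%) were listed in more R6/2 than NT libraries, against a background of 3.30% over all sites, and 13 (0.107%) in fewer, against 0.828%. In cortex 388 (2.49%) were listed in more R6/2 libraries, against 1.47%, and 133 (0.855%) in fewer, against 0.815%. Sites in introns under 100 kb were also listed in more R6/2 libraries, 7.22% in striatum and 2.49% in cortex. In fewer were 0.477% and 0.880% of them. In cortex the very long introns thus did not differ from the shorter ones. When the 5 libraries were left out, 70 of the striatal sites in very long introns (0.576%) were listed in 3 of 3 R6/2 and 0 of 4 NT males, the only split in that direction with p under 0.05 (exact permutation p = 0.0286), against 0.837% of all sites. At the extreme, a site in Cadm2, chr16:67052799-67052869 (−), and one in Ctnna2, chr6:77257171-77257240 (−), were listed in 8 of 8 R6/2 and 0 of 8 NT striatum libraries (exact permutation p = 0.000408, adjusted 0.940). Cadm2 codes for a synaptic adhesion molecule and Ctnna2 for the neuronal α-catenin. A site in Nrg1, which codes for the ligand neuregulin, was listed in 1 R6/2 and 8 NT striatum libraries, and one in Kcnip4, chr5:48742970-48743010 (−), in 8 R6/2 and 0 NT cortex libraries (adjusted exact permutation p = 0.940 and 1).

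Members were spread unevenly over genes. Genes to the number of 47 held 50% of members and the top 10 held 18.5%, and 307 genes had a member in all 32 libraries while 46 had none. The median gene had 4.08 clusters per 100 kb of very long intron (quartiles 1.06 and 9.14). Phactr1, a regulator of protein phosphatase and actin, was far above the rest with 109, followed by Snx12 (47.8), Frmd4a (44), Celf2 (38.7), Rbfox1 (36.6), Grin2a (35.7), Celf4 (34.9), Ank3 (33.5), Fam155a (33.3) and Rora (32.6). Celf2, Celf4 and Rbfox1 code for neuronal RNA-binding splicing regulators, Grin2a for an NMDA receptor subunit, Ank3 for the axonal scaffold ankyrin-G and Rora for a nuclear receptor. The gene with most members, Rbfox1, had 447 ± 150 scaled clusters in NT striatum, 540 ± 192 in R6/2 striatum, 455 ± 69.8 in NT cortex and 457 ± 72.0 in R6/2 cortex, and none of its comparisons passed. Of 438 genes with at least 100 members, 372 had a UGUGU share over that of the tiles, with a median of 14.5% and a highest value of 48.5%.

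Gene by gene, clusters in very long introns were compared between genotypes with limma on log2(scaled clusters + 1), together with the exon and shorter-intron clusters of all genes, with sex as a covariate. Of 370 genes tested in striatum, 236 had more very-long-intron clusters in R6/2 and 3 had fewer (adjusted p under 0.05), where over all 10413 gene features 10.9% were called higher and 27.6% lower. In every comparison features needed a mean of 5 or more clusters over all libraries compared. Genes with few clusters in NT striatum could therefore enter through the R6/2 libraries, which favours calls of higher. The median log2 change of the 370 was 0.93, against 0.65 in 1714 shorter-intron features, −0.28 in 8329 exon features and −0.22 over all features. Of the shorter-intron features 44.9% were called higher and 1.40% lower. Without the 5 libraries of high intronic share the median was 0.26 over 271 genes, 1 gene was called higher (Fam155a) and 2 lower (Cdh13 and Cacna2d3), and 3 and 0 were called in males alone against 304 and 2 in females alone. Scaled to the class total, which measures each gene against the other very long introns, 89 were higher and 39 lower. Of the 236 genes, 222 had exon clusters tested, of which 3 were higher and 108 lower (48.6%), against 186 lower of all 340 host genes tested on exons (54.7%).

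In cortex 36 of 384 genes were called higher and 7 lower, over a background of 1.74% and 2.50% of features. Their median log2 change was 0.29, against −0.06 over all features. Of 1793 shorter-intron features 6.53% were higher and 1.23% lower, with a median of 0.23. Scaled to the class total the numbers were 19 and 20. Of the 36 genes 33 had exon clusters tested, and 0 of these were called in either direction. Of all 359 host genes tested on exons in cortex, 0 were higher and 12 lower (3.34%). Between regions in NT mice 154 of 321 genes were higher in cortex and 20 lower, over a background of 7.88% and 9.65%, with a median of 0.75. Of 1237 shorter-intron features 23.8% were higher and 6.55% lower, with a median of 0.33. Here the exon clusters moved with the introns for the genes lower in cortex, 16 of 19 tested being lower as well. Of 146 tested genes higher in cortex 20 were higher on exons. Over all 299 host genes tested on exons, 24 were higher and 61 lower (20.4%). The R6/2 effect differed between regions for 39 of 388 genes, all with a smaller change in cortex than in striatum, over a background of 0.765% called higher and 1.08% lower in cortex. Without the 5 striatum libraries 1 gene was called. The striatal, cortical and region comparisons share NT libraries, so their calls are given side by side and are not independent.

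**Figure D4:**
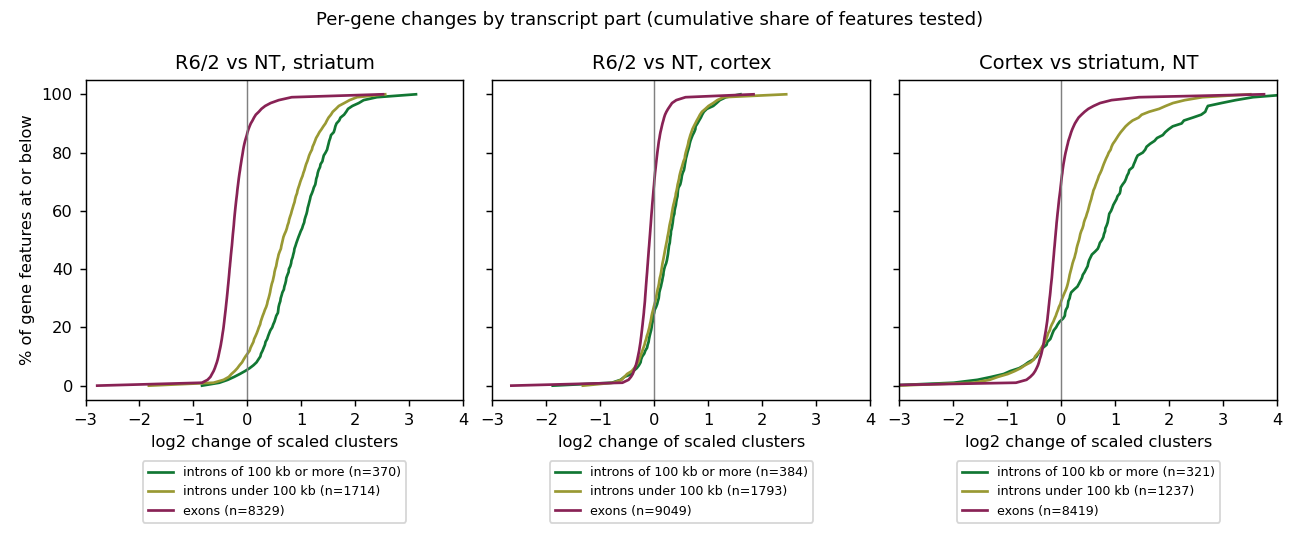
Cumulative percent of gene features by log2 change in R6/2 over NT striatum (370, 1714 and 8329 features of very long introns, shorter introns and exons), R6/2 over NT cortex (384, 1793 and 9049) and NT cortex over NT striatum (321, 1237 and 8419). In striatum the very-long-intron curve lies to the right of 0 with a median of 0.93 and the exon curve to the left with −0.28; in cortex the curves lie closer together.

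The striatal increases were led by Ralyl, which codes for an RNA-binding protein of the hnRNP C family. Its 2 very long introns (472 kb) held 5.02 ± 3.98 scaled clusters in NT striatum (lowest 1.31, median 4.24, highest 13.3) and 50.8 ± 26.3 in R6/2 striatum (14.8, 56.8, 87.2). The R6/2 libraries all lay above the NT libraries, the log2 change was 3.12 (SE 0.35, limma adjusted p = 1.95e-05), and exon clusters of Ralyl changed by −0.26 (adjusted p = 0.233). In cortex the introns held 59.9 ± 14.0 in NT and 82.3 ± 21.7 in R6/2 mice (log2 change 0.45, limma adjusted p = 0.0990). Ralyl was therefore the gene with the largest called gap between the effects of the regions, −2.70 (adjusted p = 0.000419), and with 3.53 it was also among the genes higher in NT cortex than in NT striatum. Without the 5 libraries its striatal change was 2.32 (adjusted p = 0.0895) and its gap −1.93 (adjusted p = 0.132).

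Sema6d, March1, Acyp2, Rit2 and Ext1 followed. Scaled to the striatal libraries alone, Ralyl, March1, Acyp2, Rit2 and Ext1 averaged 4.72, 4.19, 3.43, 3.26 and 3.98 in NT striatum. These means lie under the 5 that the fit required. The genes therefore entered through the R6/2 libraries, which favours their calls of higher. Sema6d, a transmembrane semaphorin of axon guidance, went from 7.52 ± 5.97 to 41.2 ± 25.7 scaled clusters in striatum (2.45, limma adjusted p = 0.000634) and from 15.7 to 36.0 in cortex (1.1, adjusted 0.00871). March1, a membrane ubiquitin ligase, went from 4.46 ± 3.47 to 25.8 ± 12.2 (2.43), Acyp2, an acylphosphatase, from 3.64 ± 1.69 to 26.5 ± 16.1 (2.38), and Rit2, a neuronal small GTPase, from 3.47 ± 2.64 to 19.6 ± 9.48 (2.26). Ext1, a glycosyltransferase of heparan sulfate synthesis, went from 4.23 ± 2.40 (highest 7.85) to 20.9 ± 7.04 (lowest 11.8), so its groups did not overlap (2.13, limma adjusted p = 0.000129), and its exon clusters fell by 0.61 on the log2 scale (adjusted 0.0148). The rule that named these 5 genes required the same sign in males and in females. The changes without the 5 libraries were 2.31 for March1, 1.74 for Sema6d and 1.20 for Ext1 (limma adjusted p = 0.119, 0.356 and 0.261), and Acyp2 and Rit2 had too few clusters for the fit.

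The 3 genes with fewer clusters in R6/2 striatum were Pdzd2, Cdh13 and Snx12. Pdzd2, a protein of many PDZ domains, went from 16.8 ± 4.64 to 9.54 ± 3.96 (−0.84, limma adjusted p = 0.0110), and Snx12, a sorting nexin of endosomes, from 63.9 ± 13.7 to 40.2 ± 8.69 (−0.65, adjusted 0.00267). Cdh13, the GPI-anchored T-cadherin, went from 39.7 ± 6.11 (30.3, 39.0, 49.5) to 25.5 ± 8.07 (14.8, 27.1, 37.9), a change of −0.67 (adjusted 0.00329) that was −1.18 (adjusted p = 0.00935) without the 5 libraries. Pdzd2 and Snx12 were then at −1.20 and −0.27 and did not pass (limma adjusted p = 0.206 and 0.647). With median-ratio scaling, which moves the median of all striatal features from −0.22 to 0.01, Pdzd2 and Cdh13 kept their sign and did not pass (adjusted p = 0.130 and 0.143). Exon clusters of all 3 fell as well, by 0.75, 0.61 and 0.49 on the log2 scale for Pdzd2, Snx12 and Cdh13.

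In cortex the called increases were led by Mctp1, a C2-domain membrane protein, from 5.27 ± 3.70 to 16.1 ± 5.74 (1.59, limma adjusted p = 0.0111), and Acyp2, from 5.85 ± 4.77 to 15.1 ± 6.77 (1.38, adjusted 0.0224). Robo1, the Slit receptor of axon guidance, went from 23.9 ± 7.80 (11.9, 23.3, 33.3) to 57.2 ± 13.5 (39.7, 56.5, 74.8), with no overlap between the groups (1.26, adjusted 0.000389). Gpc6, a glypican, and Eml6, a microtubule-associated protein, changed by 1.25 and 1.23. In striatum these genes changed by 1.82 (Mctp1), 1.93 (Robo1), 1.58 (Gpc6) and 1.30 (Eml6), and the difference of the effects did not pass for any of these or for Acyp2.

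Lrrc4, which codes for the netrin-G ligand NGL-2 of excitatory synapses, showed the largest called decrease. Its introns held 27.2 ± 9.11 scaled clusters in NT cortex (13.6, 26.3, 42.9) and 6.73 ± 2.62 in R6/2 cortex (3.41, 7.04, 9.72), with no overlap, a log2 change of −1.88 (SE 0.22, limma adjusted p = 0.000112), and its exon clusters changed by −0.16 (adjusted p = 0.474). It was called in males (−1.81, adjusted p = 0.0471) and in females (−1.96, adjusted p = 0.00413) alone. Fam19a1, a small secreted chemokine-like protein, went from 36.5 ± 10.6 to 14.9 ± 7.54 (−1.35), Tmem132d, a membrane protein, from 29.5 ± 5.98 to 15.9 ± 4.31 (−0.88), Nxpe4 from 26.9 ± 4.66 to 16.3 ± 1.92 (−0.68) and Kctd16, an auxiliary subunit of GABA-B receptors, from 54.2 ± 10.8 to 35.2 ± 6.84 (−0.61). The other called decrease was Cdh13, from 35.0 ± 7.09 to 21.6 ± 10.4 (−0.79, limma adjusted p = 0.0374), which was −1.49 in males and −0.08 in females. It did not pass with median-ratio scaling (adjusted p = 0.0902) or, at −0.79 to −0.66, in 10 of 16 fits that left out 1 library, 8 of them males. Acyp2 did not pass without R6/2 cortex female 4 (1.26, adjusted p = 0.0527). Kctd16 differed between the regions, with 0.91 in striatum and a gap of −1.52 (adjusted p = 0.00530).

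Between regions, the very long intron of Pde10a differed in direction from the rest of the gene. Pde10a, the cyclic nucleotide phosphodiesterase typical of striatal projection neurons, had 81.4 ± 6.18 scaled exon clusters in NT striatum and 34.6 ± 5.32 in NT cortex (−1.22, limma adjusted p = 2.02e-08). In its 1 very long intron (230 kb) the order was opposite, 3.22 ± 3.4 in striatum (0, 1.85, 10.6) and 63.6 ± 38.1 in cortex (15.2, 70.5, 104), a change of 3.93 (SE 0.46, adjusted 6.17e-06) with no overlap. Its shorter introns followed the exons (−1.75, limma adjusted p = 1.45e-07). They held 147 clusters in striatum and 42.7 in cortex when scaled to the mean total of the NT libraries alone. Rarb, a retinoic acid receptor of striatal neurons, was lower in cortex in both, 38.1 ± 17.8 against 3.04 ± 1.82 in the intron (−3.24, adjusted p = 9.66e-08) and 13 against 8.39 on exons (−0.55, adjusted 0.0122). Foxp1, a transcription factor of striatal projection neurons, had −1.39 in the introns and −0.62 on exons.

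The other genes most higher in NT cortex were Pdzrn3, a ubiquitin ligase of synapses, at 0.496 ± 1.01 in striatum and 26.5 ± 7.33 in cortex (4.23), Fam19a1 at 2.15 and 36.5 (3.68), Gabbr2, a GABA-B receptor subunit, at 4.04 and 32.4 (3.29), and Unc5d, a netrin receptor, at 3.09 and 32.7 (3.25). Those most lower were, beside Rarb, Spock3, a proteoglycan, at 25.3 and 2.67 (−2.87), Cacnb2, a calcium channel β subunit, at 48.5 and 6.40 (−2.78), Ryr3, a calcium release channel, at 24.7 and 4.79 (−1.96), and Dgkb, a diacylglycerol kinase of striatum, at 44.2 and 9.88 (−1.89). Each passed by limma. Like Pde10a, the genes Pdzrn3, Fam19a1, Gabbr2 and Unc5d averaged under 5 clusters in NT striatum, the mean that the fit required. Like Rarb, Spock3 and Ryr3 did so in NT cortex. These genes entered the fit through the other region, which favours such calls. Exon clusters of Spock3, Cacnb2, Ryr3 and Dgkb were also lower in cortex, by 0.44 to 0.93 on the log2 scale.

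Fam155a, whose UG-rich site is printed above, combined density with a regional difference. Its 3 very long introns (445 kb) held 36.2 ± 16.8 scaled clusters in NT striatum (15.7, 33.5, 61.5), 153 ± 52.5 in R6/2 striatum (77.7, 149, 227), 173 ± 20.9 in NT cortex (134, 177, 203) and 231 ± 30 in R6/2 cortex (190, 234, 266). The log2 change in R6/2 was 2.10 in striatum (limma adjusted p = 5.28e-06) and 0.41 in cortex (adjusted 0.0217). The gap between the effects was −1.69 (adjusted p = 0.000156), and without the 5 libraries the striatal change was 1.92 (adjusted p = 0.0246) and the gap −1.52 (adjusted 0.0495). Adarb2, a brain member of the ADAR family, had a gap of −1.83 and Ppfia2, the presynaptic scaffold liprin-α2, of −1.78, and without the 5 libraries these were −0.92 and −0.95 (limma adjusted p = 0.227 and 0.722). The Ppfia2 gap also did not pass when scaled to the class total (−1.35, adjusted p = 0.0661) or in 12 of 32 fits that left out 1 library. No gene passed in the opposite direction, where Spock3 (0.80) and Ank3 (0.41) were among the genes of smallest p (adjusted p = 0.300 and 0.366).

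**Figure D5:**
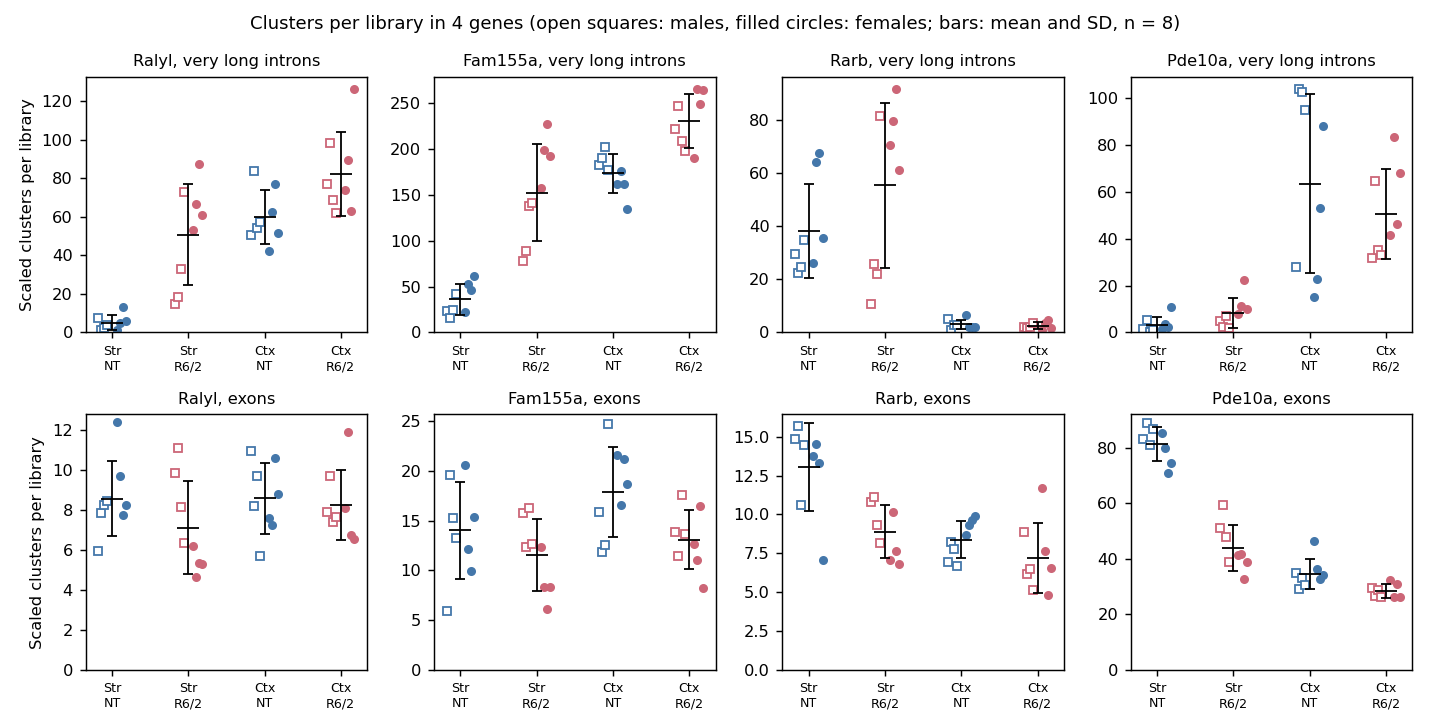
Scaled clusters per library in the very long introns (upper row) and on the exons (lower row) of Ralyl, Fam155a, Rarb and Pde10a, by region (Str, Ctx) and genotype. Intron clusters of Ralyl go from 5.02 to 50.8 on average between NT and R6/2 striatum while exon clusters are at 8.57 and 7.12, and for Pde10a introns and exons order the regions oppositely.

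The pathway lists follow, with the number called among the members tested; they were written with earlier results of these data known, and the background over all features is given above. Medians are log2 changes. Of all very-long-intron genes tested, 63.8% were higher in R6/2 striatum, 9.38% in R6/2 cortex and 48.0% in NT cortex over NT striatum. Without the 5 libraries no gene of the lists was called higher in striatum and 1, the calcium channel gene Cacna2d3, was lower, and the striatal medians ran from 0.01 to 0.50 in all pathway lists but ion channels (−0.04). Scaled to the class total, the striatal median turned sign for ion channels (−0.06), RNA-binding proteins (−0.25), signalling genes (−0.12), striatal and cortical neuron markers (−0.46 and −0.34) and the falling signature (−0.06), and the cortical median for ion channels (−0.13), receptors (−0.01), RNA-binding proteins (−0.21), genes known to fall after loss of TDP-43 (−0.07) and the falling signature (−0.08). Between regions it turned for the very large genes of other roles (−0.11), receptors (−0.21), RNA-binding proteins (−0.25), genes that fall after loss of TDP-43 (−0.22), astrocyte and oligodendrocyte markers (−0.11 and −0.29) and the falling signature (−0.20). Of 57 synaptic adhesion and axon guidance genes 50 have a very long intron, and 36 of 45 tested were higher in R6/2 striatum (median 1.02) and 3 of 47 in cortex (median 0.25), with 0 lower in either. Lsamp, Nrxn3 and Nlgn1, an adhesion molecule of limbic neurons and the presynaptic and postsynaptic partners neurexin and neuroligin, had most clusters. Lsamp went from 109 ± 36.7 to 406 ± 206 in striatum (1.75, limma adjusted p = 0.000130), Nrxn3 from 192 ± 73.6 to 362 ± 142 (0.89) and Nlgn1 from 193 ± 60.7 to 281 ± 89.0 (0.54). In cortex the values for Lsamp were 223 ± 40.2 and 286 ± 60.9, and the gap of −1.40 passed (adjusted p = 0.00883; −0.60 and 0.624 without the 5 libraries), as it did for 10 of 44 genes of the list. Between regions 22 of 43 were higher in NT cortex and 1 lower.

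Of 38 ion channel genes 27 have a very long intron, and 9 of 21 tested were higher in R6/2 striatum (median 0.70), 2 of 22 in cortex (0.09) and 11 of 21 in NT cortex over NT striatum with 3 lower. Kcnip4, a subunit of A-type potassium channels, had 95.7 ± 37.3 scaled clusters in NT striatum, 247 ± 110 in R6/2 striatum, 388 ± 78.4 in NT cortex and 335 ± 37.5 in R6/2 cortex (1.27 and −0.19, gap −1.46, limma adjusted p = 0.00530; gap −0.94, adjusted p = 0.404, without the 5 libraries). Fgf14, which binds sodium channels, changed by 0.70 in striatum, and Kcnd2, the A-type channel itself, by 0.32 (adjusted p = 0.252). Of 28 glutamate and GABA receptor genes, 19 with such an intron, 12 of 18 were higher in R6/2 striatum (median 0.84), 1 of 19 in cortex (0.22) and 7 of 18 in NT cortex with 1 lower. The metabotropic receptor gene Grm7 went from 35.5 ± 13.5 to 102 ± 59.7 in striatum (1.26), Grin2a from 42.8 to 63.9 (0.61), and Grm5 from 58.8 to 93.8 (0.57, limma adjusted p = 0.0713).

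Of 22 RNA-binding proteins listed, 7 have a very long intron, and 2 of 6 were higher in R6/2 striatum (median 0.49), 0 of 7 changed in cortex (0.01) and 1 of 5 was higher in NT cortex. Celf4 went from 37.3 ± 9.91 to 58.0 ± 16.4 in striatum (0.62, limma adjusted p = 0.00182) while Celf2 had 196 ± 58.8 and 223 ± 90.4 (0.12, adjusted 0.630). Of 31 cyclic nucleotide and kinase signalling genes, 17 with such an intron, 7 of 16 were higher in R6/2 striatum (0.67), 2 of 15 in cortex (0.24) and 8 of 16 in NT cortex with 2 lower; the phosphodiesterase gene Pde4b changed by 0.72 in striatum, and Prkce and Plcb1, a protein kinase C and a phospholipase C, by 0.47 and 0.62 without passing. Of 18 long-intron genes known to fall after loss of TDP-43, 17 have a very long intron, and 14 of 17 were higher in R6/2 striatum (1.05), 1 of 17 in cortex (0.16) and 8 of 17 in NT cortex, with 0 lower. Of 43 very large genes of other roles, 35 with such an intron, 25 of 31 were higher in R6/2 striatum (1.14), 6 of 32 in cortex (0.48) and 10 of 28 in NT cortex with 2 lower, among them Csmd1 with 123 ± 47.8 and 269 ± 119 in striatum (1.08), Nkain2 with 136 and 332 (1.28) and the synaptic scaffold gene Dlg2 with 127 and 276 (1.05).

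Few cell type markers carry a very long intron. Among striatal projection neuron markers 6 of 29 do, and 2 of 5 tested were higher in R6/2 striatum (0.35), 0 of 3 changed in cortex, and 1 of 4 was higher and 3 lower in NT cortex (−1.48), the higher one being Pde10a. Of 20 cortical excitatory markers 3 do, of which 1 of 1 tested, Hs3st4, was higher in R6/2 striatum (0.46) and in NT cortex (0.79), and 0 of 2 changed in R6/2 cortex. Erbb4, the neuregulin receptor and the interneuron marker with such an intron among 13, went from 20.1 ± 7.42 to 47 ± 22.3 in striatum (1.14) and was at 45.6 and 36.5 in cortex (−0.34, limma adjusted p = 0.206). The astrocyte markers gave 2 of 2 higher in striatum (1.28) and 2 of 3 in cortex (0.79), with Gpc5 from 12.8 to 46.0 and Npas3 from 13.4 to 30.1 in striatum. Oligodendrocyte lineage markers gave 3 of 3 higher in striatum (1.72; Lhfpl3, Tnr and St18) and 0 of 3 in cortex (0.49). The vascular marker Ebf1 was higher in striatum (1.11) and not called in cortex, and the microglial marker Cx3cr1 had too few clusters for the fit. These counts stand beside the 63.8% of all very-long-intron genes called higher there. The exon check of the labels used other, shorter marker lists that leave out most genes named here. None of the genes tested from those lists was higher on exons in R6/2 striatum.

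Of 71 genes of a Huntington's disease striatal signature that rise, 4 have a very long intron and 1 of 1 tested, Cdh18, was higher in R6/2 striatum (1.98), with 0 of 2 called in cortex. Of 195 that fall, 9 have one, and 4 of 7 were higher in striatum (0.68), 0 of 7 changed in cortex (0.15), and 2 of 7 were higher and 1 lower in NT cortex. Anks1b and Cntn5, a postsynaptic scaffold and a contactin, were the fullest of these, and neither passed in striatum (0.06 and 0.57, limma adjusted p = 0.815 and 0.193).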

How the data were processed

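Per the labels and the deposited lists themselves, these hold clusters on mm10 and no reads, and the input libraries themselves were not used. The authors called clusters in each IP library with CLIPper and deposited, for each, its coordinates, strand, the −log10 p of IP over input (listed up to 400) and the log2 fold of IP over input. Read depth is not given in the lists, so the number of listed clusters stands for depth, and shares rest on 133211 to 260739 clusters per library. Clusters were assigned by midpoint and strand with Python 3.11.15, numpy 2.4.6 and pandas 2.3.3. Differences between groups of libraries were tested by permuting the labels within sex, exactly (4900 labelings, 70 within one sex), and within-library classes by sign change over 16 libraries, two-sided, with Benjamini-Hochberg adjustment over 70 tests. Gene features (a gene's exons, introns under 100 kb or very long introns) with a mean of 5 or more clusters were fitted with limma 3.58.1 in R 4.3.3 (lmFit, eBayes with trend, sex as covariate) on log2(scaled clusters + 1), and p-values were adjusted over all features. The script was tested on simulated data. Figures were drawn with matplotlib 3.10.9.

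Replicates were separate libraries by their labels, and p-values measure the spread between these libraries. Labels do not tie a cortex library to a striatum library of the same mouse.

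The text names, per comparison, the 6 highest and 6 lowest called log2 changes with a mean of 10 or more scaled clusters that ran the same way in males and females (or, where a direction has none, its 3 smallest adjusted p), the 10 densest genes, the 3 fullest members of each gene list and the 12 sites enriched in most libraries; some genes that this rule names are not reported here. Names outside this rule are enriched-site genes, sites of smallest p and the UGUGU sites. The members, lists and tests were chosen with earlier results of these data known. The lists were synaptic adhesion and axon guidance, ion channels, glutamate and GABA receptors, RNA-binding proteins, cyclic nucleotide and kinase signalling, long-intron genes that fall after loss of TDP-43, very large genes of other roles, 7 sets of cell type markers, and a Huntington's disease signature that the study takes from other mouse data.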

Additional observations from a re-analysis of the deposited data

Results flagged for a closer look

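Of 84 groups of 8 libraries examined, 5 had a library far from the other 7, and chance gives about 1 in 20. In NT striatum male 1 had 0.508% of its enriched clusters in very long introns, against 0.134% to 0.299% in the others. The library held 4926 enriched clusters, the fewest of all. For Acyp2, NT cortex female 3 had 16.4 scaled clusters (others 1.90 to 8.20) and NT striatum female 1 had 0 (others 2.97 to 5.54). Foxp1 had 16.2 in NT cortex female 1 (others 5.78 to 10.7), and Pdzrn3 had 2.75 in NT striatum female 1 (others 0 to 1.21).

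The R6/2 effect on very-long-intron clusters was smaller in cortex than in striatum for 39 genes by limma's test of the difference itself (adjusted p under 0.05). The named genes with the widest gap, as effect in cortex minus effect in striatum on the log2 scale, were Ralyl (−2.70), March1 (−1.95), Ext1 (−1.94), Adarb2 (−1.83), Ppfia2 (−1.78) and Fam155a (−1.69). The rule that named these 6 required the same sign in both sexes. Without the 5 R6/2 striatum libraries of high intronic share 1 gene was called, and of these 6 Fam155a alone passed (−1.52, adjusted p = 0.0495); the gaps of the others were then −1.93 (Ralyl), −1.89 (March1), −1.02 (Ext1), −0.92 (Adarb2) and −0.95 (Ppfia2).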

How the results depend on the processing

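Of the values and counts that answer a comparison, 137 kept direction and side of the threshold under an alternative, 38 were weaker, 7 stronger and 6 turned sign; for named genes these numbers were 425, 50, 0 and 1 (the Ank3 gap, −0.16 in males alone), and the causes were not tested. Leaving out 1 library ended the call of named genes for Cdh13 in cortex (10 of 16 fits), Acyp2 in cortex (1 of 16) and the Ppfia2 gap (12 of 32). In striatum the R6/2 rise in listed share was 2.91 points as a share of intronic clusters, 1.92 in males and 0.712 without the 5 libraries, and in cortex −0.00716 as a share of intronic clusters; the NT regional gap was 0.925 in females. The enriched share in striatum turned to 0.0439 (covered bases), 0.0278 (log2 fold above 3) and 0.0308 (females), and in cortex was −0.0528 for introns of 50 kb or more. The log2 ratio to exons was 0.66 in males and 0.32 without the 5 libraries in striatum and 0.0713 in males in cortex. The UGUGU difference was −3.32 (in the cluster itself), −1.29 (enriched only), −1.89 (males) and −0.484 (without the 5) in striatum, and −6.08 (enriched only) and −4.19 (females) in cortex. Long minus shorter introns gave 0.663 (UG repeated 4 times), −0.624 (males), −1.15 (females) and −0.191 (NT) in striatum and 0.260 (UG repeated 4 times) in cortex; the UG repeat, the single-genotype values and, for other measures, sites, densities and gene lists, the values without the 5 libraries were chosen after seeing the data.

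For genes, higher and lower calls in striatum were 89 and 39 by class total, 3 and 0 in males and 1 and 2 without the 5 libraries, and lower calls were 1 with median-ratio scaling and 5 with quantiles. Class-total scaling moved the median of all striatal features from −0.22 to −0.97 and median-ratio scaling to 0.01. In cortex calls were 19 and 20 by class total, 0 and 0 on enriched clusters and 3 and 4 in males, with 2 lower in females. Between regions they were 84 lower by class total, 0 and 1 on enriched clusters, 9 lower in males and 64 higher in females. The gap between regions gave 1 and 9 by class total, 1 and 25 with quantiles, and 13 (no sex), 1 (males), 6 (females) and 1 (without the 5) lower. Enriched clusters left 1 gene to test in cortex and 1 between regions and could not be fitted elsewhere.

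Leaving out each library in turn gave, for the listed share, 3.53 to 4.47 in striatum, 0.985 to 1.53 in cortex and 2.01 to 2.61 between regions; for the enriched share −0.0497 to 0.0245 and −0.0471 to −0.0265, positive without NT male 1 or R6/2 male 1 (0.000938) of striatum; for the log2 ratio 0.98 to 1.25 and 0.31 to 0.44; for UGUGU −5.39 to −3.89 and −5.73 to −4.27; and for long minus shorter introns −1.03 to −0.765 and −1.23 to −1.09. Gene calls were 187 to 266 and 3 to 4 in striatum, 21 to 55 and 5 to 8 in cortex (55 without NT male 2; 23, 22 and 21 without NT female 4, R6/2 female 2 and R6/2 female 4), 140 to 170 and 16 to 24 between regions, and 0 and 20 to 64 for the gap (60, 60 and 64 without striatum NT male 1, R6/2 male 1 and R6/2 male 2; 21 and 20 without striatum R6/2 male 4 and female 3; 20, 25, 24 and 25 without cortex NT male 2, NT male 3, R6/2 male 3 and R6/2 female 1).

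Samples of the same number did not vary together (correlations of their deviations −0.05 to 0.17 in striatum, −0.19 to 0.13 in cortex and −0.06 to 0.10 between regions). With the replicate block, 1 answer changed, the cortical log2 ratio to exons (0.37, exact permutation p = 0.0547), and striatal gene calls were 246 and 3, cortical 29 and 5, regional 157 and 22 and the gap 0 and 50. The blocked fits shared 232 of 239, 30 of 43, 170 of 174 and 35 of 39 called genes with the fits without the block. The lists limit what can be seen: a place with few reads may go uncalled in one library. No site passed adjustment over all sites, also when sites were defined by 8 of 16 libraries, but a few differing sites could not have passed it.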
